A study of Mus musculus with 4 samples.

Results

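The genes described here encode the ion channels that control calcium entry, membrane voltage and pH in the tail of the sperm. They were taken from a fixed list of 10 symbols, CATSPER1, CATSPER2, CATSPER3, CATSPER4, CATSPERB, CATSPERD, CATSPERZ, EFCAB9, KCNU1 and HVCN1, out of 25824 symbols in the 4 count tables. All 10 were listed in 3 of the tables, and the table of WT replicate 1 listed 9, without HVCN1. Single cell RNA-seq of testes from 2 WT mice (replicates 1 and 2) and 2 Ctcf-cKO mice (replicates 1 and 3) was examined for the stage at which each gene appeared and for differences between genotypes. The labels give 15 weeks of age and the background strain C56BL/6J for every mouse. WT mice are labelled Ctcf wt/wt, while the study's methods also allow littermates with floxed alleles and no Cre. Ctcf-cKO mice carry Stra8-iCre, 1 floxed and 1 deleted Ctcf allele (f/Δ), so that recombination takes place in germ cells, in which the Stra8 promoter is active, and somatic cells keep the floxed allele. The methods describe pooled cell filtrates for the Ctcf-cKO mouse.

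CatSper is the calcium channel of the sperm flagellum, and mice without it are infertile because their sperm cannot hyperactivate. CATSPER1, CATSPER2, CATSPER3 and CATSPER4 form its pore, CATSPERB and CATSPERD are auxiliary subunits with large extracellular domains, and CATSPERZ with the calcium binding protein EFCAB9 makes the channel sensitive to calcium and pH. KCNU1 (SLO3) is the pH sensitive potassium channel that hyperpolarizes sperm during capacitation, and HVCN1 is a voltage-gated proton channel. Channel proteins are used in the flagellum of mature sperm, but their RNA is made earlier, in spermatocytes and round spermatids, since transcription stops when the spermatid nucleus condenses.

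The libraries held 6701235 and 4859455 counts in WT replicates 1 and 2, and 2652665 and 1593546 counts in Ctcf-cKO replicates 1 and 3, so that both Ctcf-cKO libraries were shallower. CTCF, the deleted gene, had 16.4 and 10.1 CPM (counts scaled to a common total) in the WT mice and 1.51 and 4.39 CPM in Ctcf-cKO mice. Of all barcodes, 96, 241, 228 and 246 were kept as cells (WT replicates 1 and 2, Ctcf-cKO replicates 1 and 3, the order used for all values here), and 1 of these 811 cell barcodes occurred in more than 1 library. Cells were clustered without the channel genes, and clusters were named from marker genes. Spermatocyte-like cells numbered 5, 31, 12 and 10, round spermatid-like cells 16, 139, 40 and 12, and elongating spermatid-like cells 62, 32, 95 and 107. Leydig-, Sertoli-, macrophage- and peritubular-like cells, here together called somatic-like, numbered 11, 9, 65 and 98. Round spermatid-like cells came from 3 clusters of 40, 113 and 54 cells. These had 12, 15 and 16 round spermatid markers, but also 9, 2 and 9 spermatocyte markers. The cluster of 113 cells held none from WT replicate 1, whose 16 cells lay in the other two and had a median of 38599 counts, against 2955 to 9034 in the other mice. Nothing in the labels gives the mice beyond 1 library each, so p-values measure the spread between these libraries, while limits from counts of 0 and intervals hold counting error alone.

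The genes lie on 9 chromosomes, and only CATSPER1 and CATSPERZ share one, chromosome 19. Positions are those of the GENCODE annotation of GRCm38. CATSPER1 spans 5335741 to 5344280 of chromosome 19 on the forward strand, in up to 12 exons, and CATSPERZ spans 6922371 to 6925380 on the reverse strand, in up to 6 exons. CATSPER2 lies on chromosome 2 (121392631 to 121413792), CATSPER3 on chromosome 13 (55784568 to 55808998), CATSPER4 on chromosome 4 (134211970 to 134227383), CATSPERB on chromosome 12 (101404653 to 101626009), CATSPERD on chromosome 17 (56628143 to 56664456), EFCAB9 on chromosome 11 (32522751 to 32532081), KCNU1 on chromosome 8 (25849623 to 25937939) and HVCN1 on chromosome 5 (122206804 to 122242297). In the annotation CATSPERZ overlaps Kcnk4 on the same strand, CATSPER2 overlaps Pdia3 on the opposite strand and HVCN1 overlaps Tctn1 on the opposite strand. Whether counting used the strand is not given in the sources used here, so reads of these pairs may be shared.

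Promoters were compared between late genes, which passed as higher in round spermatid-like than in spermatocyte-like cells, and early genes. The early genes did not pass there and exceeded somatic-like cells in the spermatocyte-like cells of every mouse. RefSeq promoter windows (GRCm38.p6) were given for 7 of the 10 genes, in 8 windows, since CATSPERD has 2. Letters searched in the 250 bases upstream of the start, on both strands, were TGACG, the core of the cyclic AMP response element bound by CREM in round spermatids, GTTGCC, a site of RFX factors, and AGNNGGC, the end of the core of the CTCF motif. TGACG was found in 2 of the 8 windows, those of CATSPER2 and of CATSPERD, against 17.8% of all 32851 windows of this length. CATSPERB and CATSPERZ, also present in spermatocyte-like cells, had no match, and neither did the later genes CATSPER3, CATSPER4 and EFCAB9, so the letters did not separate the early from the late genes. Shown are 2 late and 3 early genes, CATSPERZ as an early gene without a match. GTTGCC was in 0 of the 8 (10.4% of all windows) and AGNNGGC, an unspecific stretch, in 6 of the 8 (52.5% of all windows). The searched motifs do not overlap one another in these windows. Capitals mark TGACG or its reverse CGTCA, and the sequences run 5′ to 3′ on the strand of the gene up to the base before its start.
CATSPER3 (chr13:55784329-55784578, forward strand): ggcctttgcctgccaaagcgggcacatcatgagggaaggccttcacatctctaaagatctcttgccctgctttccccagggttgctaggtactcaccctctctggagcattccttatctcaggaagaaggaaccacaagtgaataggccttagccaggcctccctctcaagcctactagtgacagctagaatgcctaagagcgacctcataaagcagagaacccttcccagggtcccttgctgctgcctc
EFCAB9 (chr11:32527575-32527824, reverse strand): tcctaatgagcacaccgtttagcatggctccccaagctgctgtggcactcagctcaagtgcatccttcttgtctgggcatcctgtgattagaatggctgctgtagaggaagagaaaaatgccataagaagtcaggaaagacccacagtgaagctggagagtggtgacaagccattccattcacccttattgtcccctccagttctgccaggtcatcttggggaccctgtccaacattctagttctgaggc
CATSPER2 (chr2:121413793-121414042, reverse strand): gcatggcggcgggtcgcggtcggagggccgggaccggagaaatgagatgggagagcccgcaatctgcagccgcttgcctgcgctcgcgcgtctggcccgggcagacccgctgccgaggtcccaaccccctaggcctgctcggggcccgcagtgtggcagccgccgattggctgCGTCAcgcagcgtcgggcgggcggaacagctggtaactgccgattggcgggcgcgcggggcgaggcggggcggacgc
CATSPERD (chr17:56626797-56627046, forward strand): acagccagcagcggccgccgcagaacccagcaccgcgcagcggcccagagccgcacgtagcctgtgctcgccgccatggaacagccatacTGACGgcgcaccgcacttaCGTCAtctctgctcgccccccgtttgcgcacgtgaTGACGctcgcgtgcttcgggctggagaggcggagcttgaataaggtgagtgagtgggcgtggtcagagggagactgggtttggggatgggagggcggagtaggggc
CATSPERZ (chr19:6925381-6925630, reverse strand): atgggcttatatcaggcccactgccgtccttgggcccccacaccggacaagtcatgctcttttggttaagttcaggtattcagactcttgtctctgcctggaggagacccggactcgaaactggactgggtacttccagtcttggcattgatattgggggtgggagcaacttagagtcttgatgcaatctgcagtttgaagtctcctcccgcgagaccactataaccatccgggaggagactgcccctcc
The CATSPERD window is the upstream of its 2 windows and holds 3 matches, while the window next to the annotated gene start holds none. The EFCAB9 window lies inside the GENCODE gene, since RefSeq starts the gene further downstream.

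Of the pore subunits, CATSPER1, CATSPER3 and CATSPER4 had few or no counts in spermatocyte-like cells and reached their highest level in round spermatid-like cells. CATSPER1 had 0, 28.3, 0 and 0 CPM in spermatocyte-like cells and 111, 91.8, 105 and 143 CPM in round spermatid-like cells. Every mouse was higher in the round class, and the ranges did not overlap. CATSPER3 had 0, 14.2, 0 and 0 CPM against 189, 137, 77.4 and 118 CPM, again without overlap. CATSPER4 had 19.3, 60.7, 29.4 and 0 CPM against 236, 189, 189 and 286 CPM. A count of 0 in spermatocyte-like cells allows up to 29.0 CPM in WT replicate 1, 22 CPM in Ctcf-cKO replicate 1 and 80.9 CPM in Ctcf-cKO replicate 3, where the class held 37102 counts. These limits take each count as 1 molecule. At 4 counts per molecule, the most that the tables point to, they would be 116, 88.1 and 323 CPM, which exceeds the round level of CATSPER1 in WT replicate 1 and Ctcf-cKO replicate 3 and that of CATSPER3 in both Ctcf-cKO mice. Absence from the spermatocyte-like cells of these mice is therefore not shown at this depth. Compared within mice by edgeR over the 12 sums of mouse and class, log2 fold changes (round over spermatocyte-like) were 3.99 ± 1.02 (SE, adjusted p = 0.0081) for CATSPER1, 4.83 ± 1.0 (adjusted p = 0.0016) for CATSPER3 and 3.16 ± 0.64 (adjusted p = 0.0014) for CATSPER4.

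The calcium sensor EFCAB9 and the potassium channel KCNU1 rose at the same step. EFCAB9 had 0, 64.7, 44.0 and 0 CPM in spermatocyte-like cells and 423, 297, 211 and 404 CPM in round spermatid-like cells. The lowest round value was over 3 times the highest spermatocyte value, and the log2 fold change was 3.41 ± 0.63 (edgeR adjusted p = 0.0006). KCNU1 had 9.67, 20.2, 29.4 and 0 CPM against 160.1, 76.4, 77.4 and 151 CPM, which is a log2 fold change of 2.84 ± 0.81 (edgeR adjusted p = 0.015). Its ranges did not overlap either. LRRC52, the auxiliary subunit of KCNU1, had 0, 20.2, 36.7 and 0 CPM against 143, 85.6, 62.3 and 159.8 CPM, and rose as well (log2 fold change 2.85 ± 0.84, edgeR adjusted p = 0.020). LRRC52 had low levels outside the round class and could enter the test only through it, so its rise is a description.

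CATSPER2, CATSPERZ, CATSPERD and CATSPERB were present before that step, CATSPERB in only 11 of 58 spermatocyte-like cells. CATSPERZ had 842, 797, 418 and 512 CPM in spermatocyte-like cells and 951, 658, 509 and 791 CPM in round spermatid-like cells. CATSPER2, the pore subunit that departed from the other three, had 290.2, 346, 176 and 269.5 CPM against 382, 225, 159 and 387 CPM. Both genes overlapped between the classes, and their log2 fold changes of 0.51 ± 0.40 and 0.31 ± 0.44 did not pass the test (edgeR adjusted p = 0.44 and 0.70). CATSPERD had 145, 115, 29.4 and 135 CPM against 113, 93.0, 83.8 and 135 CPM (log2 fold change 0.41 ± 0.52, edgeR adjusted p = 0.66). CATSPERB had its highest mean in spermatocyte-like cells, with 48.4, 74.8, 29.4 and 80.9 CPM against 30.1, 17.9, 19.3 and 0 CPM. It was lower in the round class in 4 of 4 mice, but its log2 fold change of -1.42 ± 1.01 did not pass the test (edgeR adjusted p = 0.38). In WT replicate 2 the spermatocyte value of CATSPERB rested on 37 counts in 8 of 31 cells. In WT replicate 1 and Ctcf-cKO replicates 1 and 3 it rested on 5, 4 and 3 counts in 1 cell each, which may be few molecules. The 80.9 CPM of Ctcf-cKO replicate 3 equals the limit that a count of 0 allows there.

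**Figure D1:**
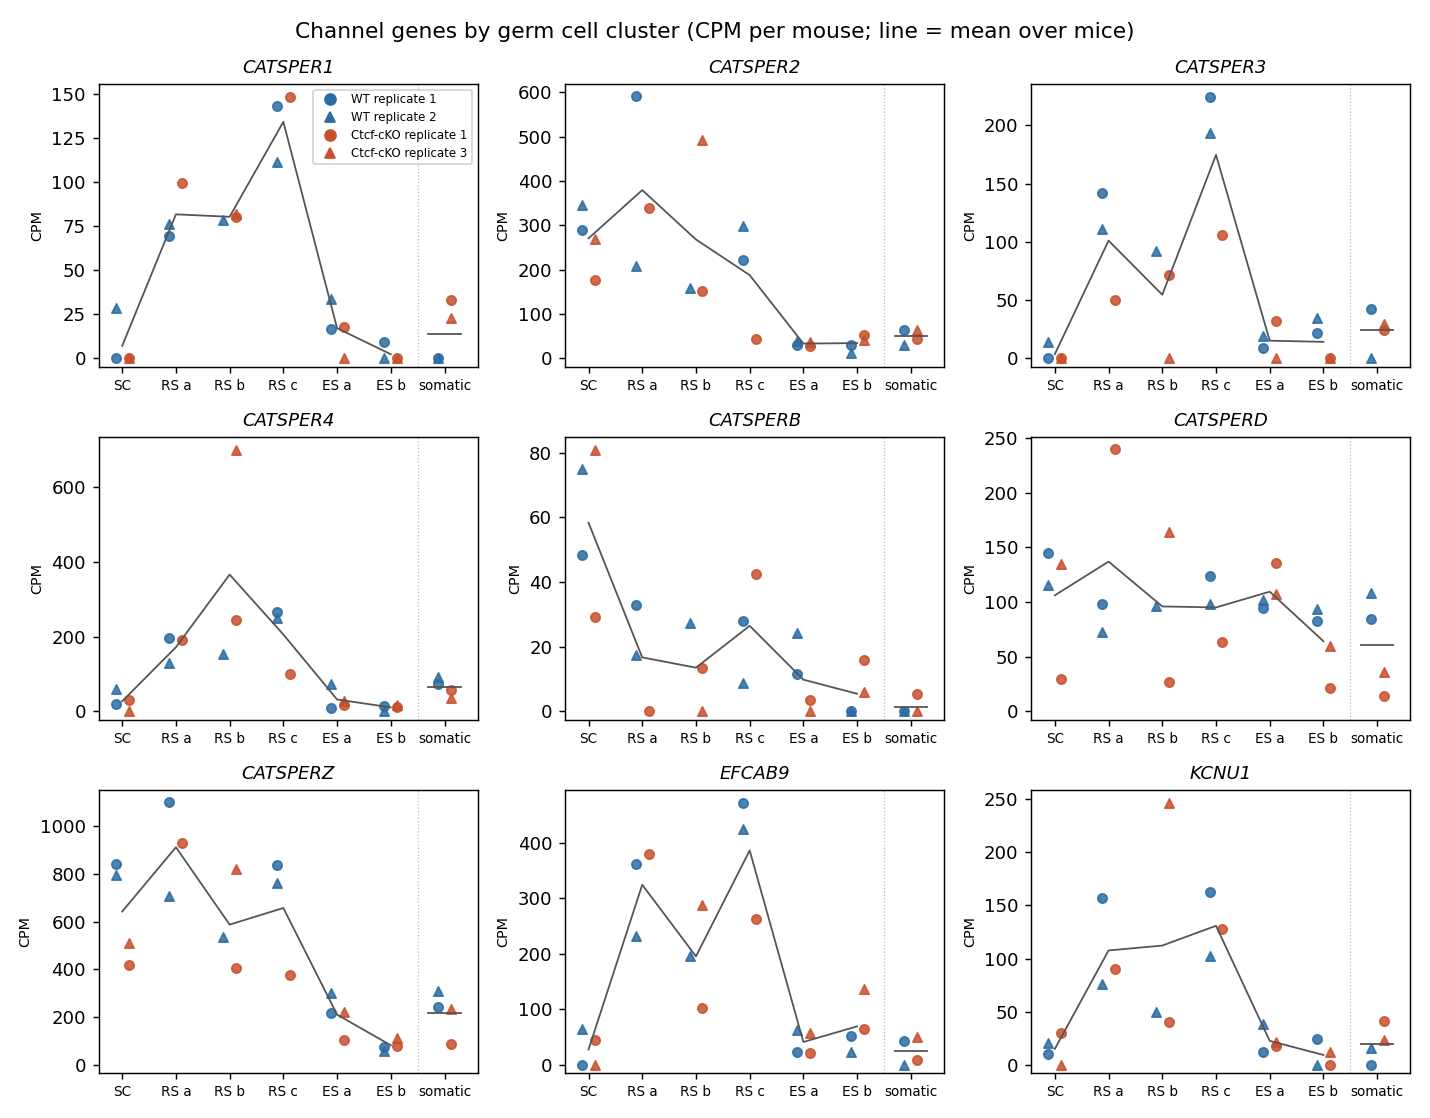
Level of 9 channel genes (vertical axis, CPM of the cluster's summed counts) in each mouse with at least 5 cells of the cluster. The horizontal axis gives the spermatocyte-like cluster (SC), the 3 round spermatid-like clusters (RS a to c) and the 2 elongating spermatid-like clusters (ES a and b) in order of pseudotime, and the somatic-like cells. Points are mice, blue for WT and red for Ctcf-cKO, and lines are means over mice. CATSPER1, CATSPER3, CATSPER4, EFCAB9 and KCNU1 start low and peak in the round clusters, CATSPER2 and CATSPERZ are already high in the first cluster, CATSPERB is highest there, and CATSPERD shows no such step.

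In this comparison 15.4% of the 6259 genes tested passed, 12% higher and 3.4% lower in round spermatid-like cells. Of the 9 channel genes tested, 5 were higher, 0 lower and 4 did not pass, and HVCN1 had too few counts to be tested. The median log2 fold change of the 9 was 2.84, beside 0.19 over all genes tested. Each of the 5 had 0 counts in the spermatocyte-like cells of at least 1 mouse and could enter the test only through the other classes, so this count and median are a description. No member passed when clustering was done without batch correction or when cells needed 6 times the plateau count, and 4 or 5 passed under each other alternative. Under these settings the 5 log2 fold changes lay between 0.83 (KCNU1) and 2.89 (CATSPER3) and between 0.81 (KCNU1) and 1.60 (CATSPER3), and a cluster with about as many round spermatid as spermatocyte markers was counted as spermatocyte-like. When that cluster was counted as round spermatid-like at 6 times the plateau, a choice made after seeing the data, the same 5 genes passed again, with 2.57 (KCNU1) to 4.52 (CATSPER3). Without batch correction it was the only spermatocyte-like cluster, so that no such fit could be made.

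Free RNA sets a floor in these droplets, so somatic-like cells, which should lack the CatSper genes, were read beside the germ cells. In somatic-like cells CATSPERZ had 242, 309, 84.9 and 234 CPM and CATSPER4 had 73.5, 92.7, 57.5 and 36.3 CPM. Spermatocyte-like cells exceeded the somatic-like cells of the same mouse in 4 of 4 mice for CATSPER2, CATSPERB, CATSPERD and CATSPERZ, in 2 for EFCAB9 and KCNU1, in 1 for CATSPER1 and CATSPER3 and in 0 for CATSPER4. The values of the last 5 genes in spermatocyte-like cells are therefore not told apart from background in every mouse. EFCAB9 had a count in 14 of 31 spermatocyte-like and 0 of 9 somatic-like cells of WT replicate 2 (64.7 against 0 CPM). It had 44.0 against 8.21 CPM in Ctcf-cKO replicate 1. In WT replicate 1 and Ctcf-cKO replicate 3 it had 0 against 42.0 and 49.5 CPM, with only 5 and 10 spermatocyte-like cells, so its absence is not shown. When the free RNA profile of each library was subtracted, the same number of 5 members passed between spermatocyte- and round spermatid-like cells.

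The share of cells with a count, with mice pooled and depth as it was, was likewise highest in the round class for CATSPER1, EFCAB9 and CATSPERZ. CATSPER1 had a count in 7 of 58 spermatocyte-like, 85 of 207 round spermatid-like, 11 of 296 elongating spermatid-like and 8 of 183 somatic-like cells. EFCAB9 had a count in 16, 114, 36 and 7 cells of the same classes, and CATSPERZ in 46, 181, 90 and 37. Among the other classes the order by share differed from that by CPM for CATSPER1 and EFCAB9, and no order is read from it. The shares vary with depth, which had medians of 2955 to 38599 counts in round spermatid-like cells and 2832 to 6463 counts in somatic-like cells. Per mouse, CATSPERZ was seen in 66.7% to 100% of round spermatid-like and 10.8% to 54.5% of somatic-like cells, and after thinning every cell to 250 counts in 12.9% to 22.5% and 0% to 11.1%. EFCAB9 was seen in 33.3% to 93.8% and 0% to 9.09% of these cells, and after thinning in 7.19% to 16.7% and 0% to 1.54%. Thinned spermatocyte-like cells had CATSPERZ in 0% to 25% and EFCAB9 in 0% to 3.23%. CATSPER1 was then in 0% to 3.23% of spermatocyte-like and 0% to 8.33% of round spermatid-like cells. At equal depth only EFCAB9 kept these 2 classes apart, and the ranges of CATSPERZ and CATSPER1 overlapped. No cell was too shallow to be thinned.

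Within the round spermatid-like cells the pseudotime of the clusters b and c (medians of 0.626 and 0.628) did not set an order between them, while cluster a came earlier (0.541). Cluster a had 12 round spermatid and 9 spermatocyte markers, and whether the genes rose in spermatocytes counted within it was not tested. CATSPER3 had 142, 111 and 49.9 CPM in cluster a in the 3 mice with at least 5 cells there (WT replicates 1 and 2 and Ctcf-cKO replicate 1) and 224, 193 and 106 CPM in cluster c. It was higher in cluster c in each of them. CATSPER1 moved the same way, from 69.2, 76.2 and 99.9 CPM to 143, 111 and 149 CPM, and so did EFCAB9 in WT replicates 1 and 2 (361 and 232 CPM to 471 and 425 CPM) but not in Ctcf-cKO replicate 1 (379 and 262 CPM). CATSPERZ was at 1100, 707 and 929 CPM in cluster a and at 836, 760 and 375 CPM in cluster c. These sub-cluster values rest on 5 to 35 cells per mouse and were not tested.

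Most of the channel genes fell again in elongating spermatid-like cells. CATSPER1 fell to 14.5, 23.9, 10.7 and 0 CPM and CATSPER3 to 12.7, 23.9, 19.2 and 0 CPM. CATSPER4 fell to 10.9, 51.2, 14.9 and 22.7 CPM. None of these values reached the lowest value of the round class. CATSPER2, at 30, 30.7, 38.4 and 38.9 CPM, was lower than in round spermatid-like cells in 4 of 4 mice, and so was CATSPERZ, at 174, 229, 93.8 and 162 CPM. EFCAB9 had 30.9, 51.2, 38.4 and 100.4 CPM, and KCNU1 had 15.4, 27.3, 10.7 and 16.2 CPM. Again every mouse was lower than in its own round spermatid-like cells.

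By edgeR, log2 fold changes (elongating over round spermatid-like, within mice) were -2.55 ± 0.84 for CATSPER1 (adjusted p = 0.029), -2.19 ± 0.46 for CATSPER2 (0.0010), -2.52 ± 0.77 for CATSPER3 (0.018) and -2.65 ± 0.58 for CATSPER4 (0.0016). They were -1.39 ± 0.40 for CATSPERZ (adjusted p = 0.013), -1.92 ± 0.54 for EFCAB9 (0.011) and -1.93 ± 0.70 for KCNU1 (0.049). CATSPERB, at 8.18, 17.1, 8.53 and 3.24 CPM, and CATSPERD, at 90.9, 99.0, 89.5 and 81.0 CPM, did not pass the test (log2 fold changes -0.16 ± 0.97 and 0.59 ± 0.48, edgeR adjusted p = 0.92 and 0.41). Thus 7 of 9 members tested were lower and 0 higher, with a median of -1.93, where 21.5% of all 6259 genes passed, 11.4% lower and 10.2% higher, with a median of -0.14. CATSPER1, CATSPER3, CATSPER4 and KCNU1 had low levels outside the round class and could enter the test only through it, where they were high. This count and median are therefore a description. Elongating spermatid-like cells hold much of their RNA as protamine and other late transcripts, and scaling by library totals alone moved the median of all genes by -0.80. The 7 genes also passed on that scale, on which the log2 fold change of CATSPERD was -0.21. When a mouse was left out, 2 members passed without WT replicate 2, 3 without Ctcf-cKO replicate 1, 4 in the absence of Ctcf-cKO replicate 3 and 5 in that of WT replicate 1, all lower.

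**Figure D2:**
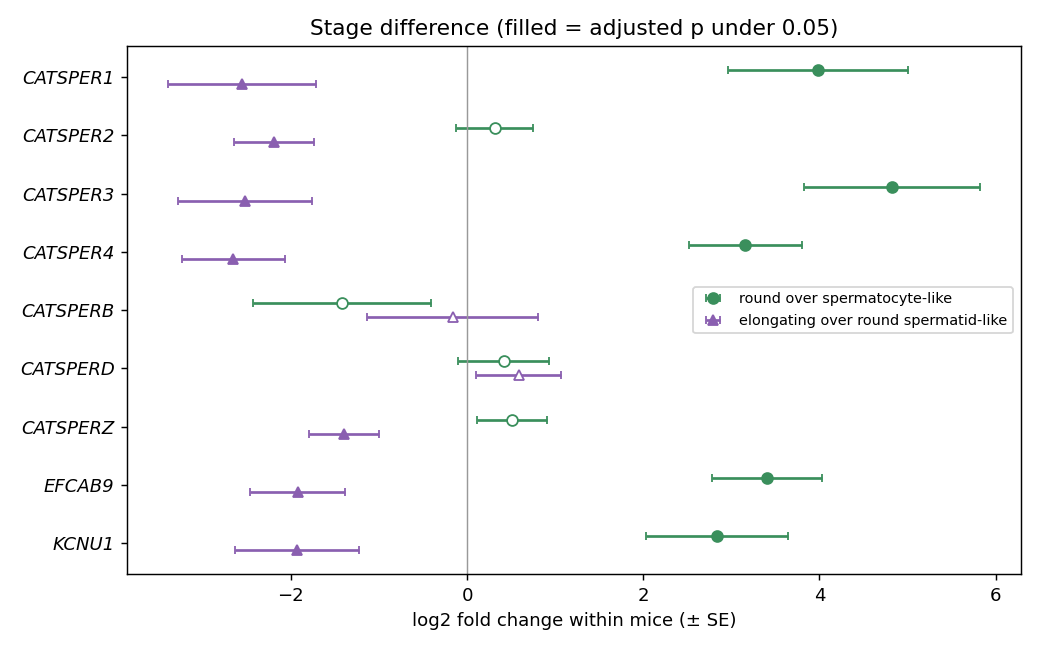
Log2 fold change of 9 channel genes between stages (horizontal axis, ± SE, edgeR within mice), for round over spermatocyte-like (green circles) and elongating over round spermatid-like cells (purple triangles). Filled symbols passed the test. The 5 genes that passed at the first step lie between 2.84 and 4.83, the 7 that passed at the second between -2.65 and -1.39, and CATSPERB and CATSPERD passed at neither.

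The other parts of the CatSper complex came from a list of related sperm channel, transporter and partner genes. Of this list 33 of 36 symbols were in the tables. Their levels were not read beside somatic-like cells, so they are not sorted into early and late genes. TMEM249 and TMEM262, both subunits of the complex, were at 0 in 3 of 4 mice in spermatocyte-like cells and had 106, 76.4, 64.5 and 227 CPM and 149, 74.5, 62.3 and 244 CPM in round spermatid-like cells. Both rose, with log2 fold changes of 4.20 ± 0.95 (edgeR adjusted p = 0.0036) and 4.10 ± 0.90 (0.0028). They could enter the test only through the round class, where they were high, so these values are a description. The limits of a count of 0 given above hold here too, and absence from spermatocyte-like cells is not shown. C2CD6, which is needed to carry the channel to the flagellum, had 290.2, 285, 213 and 269.5 CPM in spermatocyte-like cells and 506, 267, 239 and 185 CPM in round spermatid-like cells, and the transporter-like subunit SLCO6C1 had 242, 305, 213 and 0 CPM against 260.0, 178, 193 and 168 CPM. Neither passed the test at this step, and both fell in elongating spermatid-like cells (log2 fold changes -1.52 ± 0.44 and -2.34 ± 0.57, edgeR adjusted p = 0.013 and 0.0039). CATSPERG1 and CATSPERG2, and CATSPERE1 and CATSPERE2, are near-identical copies whose reads may be shared. Neither CATSPERG gene passed between stages, and CATSPERE1 and CATSPERE2 had too few counts to be tested there.

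Of the whole related list, 19 genes were tested between stages. At the first step 6 were higher (ATP1A4, CABYR, LRRC52, PLCZ1, TMEM249 and TMEM262) and 0 lower, with a median of 0.50. Of all genes tested, 12% were higher and 3.4% lower at that step. At the second, C2CD6, SLC9B1, SLCO6C1 and VDAC2 were lower and ATP1A4 and ATP1B3 higher, with a median of -0.63, where 11.4% of all genes tested were lower and 10.2% higher. ATP1A4, the sodium pump of the sperm flagellum, went from 77.4, 113, 117 and 350.4 CPM to 407, 285, 404 and 244 CPM and then 478, 440.4, 431 and 402 CPM, with log2 fold changes of 1.52 ± 0.48 (edgeR adjusted p = 0.028) and 1.18 ± 0.43 (0.048). With scaling by library totals it passed at neither step (1.21 ± 0.43 and 0.34 ± 0.38, edgeR adjusted p = 0.059 and 0.53), and by DESeq2 at both (adjusted p = 0.030 and 0.013). ATP1B3 also lost its call on library totals, where 10 related genes were lower and 0 higher at the second step. Ctcf-cKO replicate 3 was the exception at the first step, and at the second ATP1A4 was higher by CPM in 4 of 4 mice. PLCZ1, the sperm factor that activates the egg, rose at the first (1.71 ± 0.47, edgeR adjusted p = 0.013).

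Over all barcodes of each mouse, cells and free RNA together, the CatSper genes were lower in the Ctcf-cKO mice. CATSPERZ had 752 and 635 CPM in WT mice against 283 and 343 CPM in Ctcf-cKO mice. CATSPER2 had 361 and 239 CPM against 106 and 102 CPM, and CATSPER3 had 125 and 91.6 CPM against 40.7 and 28.2 CPM. In none of these did the genotypes overlap. CATSPER1 had 91.8 and 68.9 CPM against 44.9 and 36.4 CPM, CATSPER4 had 146 and 135 CPM against 74.6 and 57.7 CPM, CATSPERB had 51.9 and 35.0 CPM against 16.6 and 16.9 CPM, and EFCAB9 had 344 and 206 CPM against 103 and 114 CPM. CATSPERD (145 and 111 CPM against 79.2 and 87.2 CPM) and KCNU1 (95.9 and 63.6 CPM against 44.1 and 48.3 CPM) lay apart by less. All 9 genes were lower in both Ctcf-cKO mice than in both WT mice. Of all 14552 genes tested, 7505 had a log2 fold change below 0. How many of them lay apart in this way was not counted, so the 9 are a description.

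**Figure D3:**
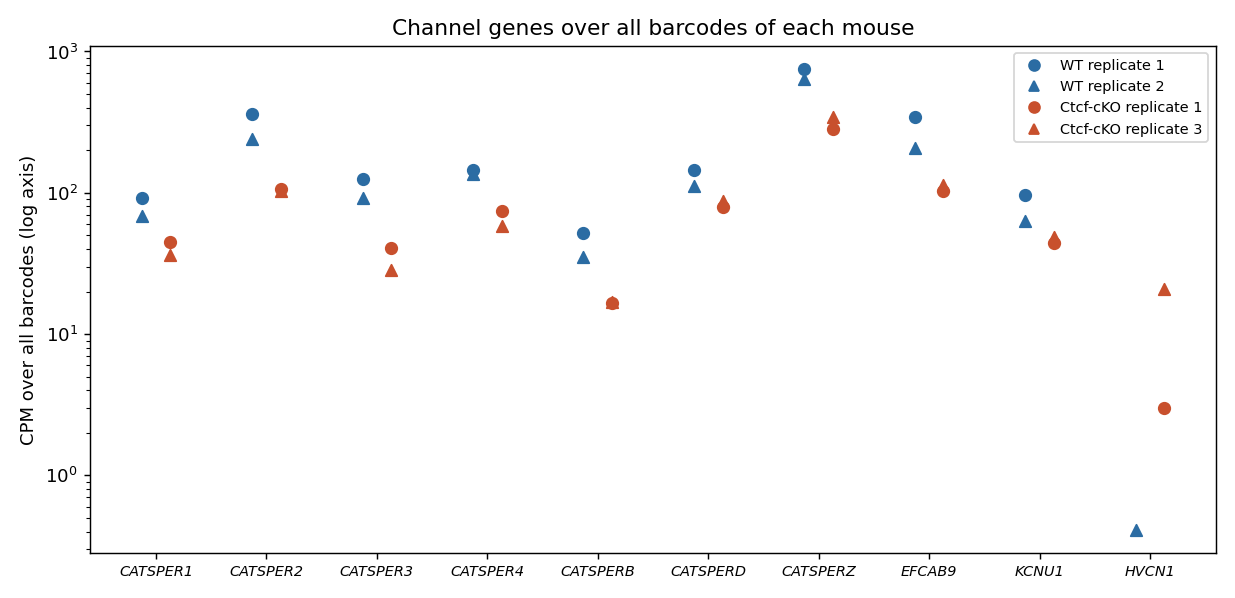
Level of the 10 channel genes over all barcodes (vertical log axis, CPM) in each of 2 WT (blue) and 2 Ctcf-cKO mice (red). For 9 genes both red points lie below both blue points, and for HVCN1, which had 0 counts in WT replicate 1 (not drawn), both lie above. The share of all genes that lie apart in this way was not counted.

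In edgeR the log2 fold change (Ctcf-cKO over WT, n = 2 mice each) was -1.57 ± 0.28 for CATSPER3 (adjusted p = 0.0019), -1.46 ± 0.22 for CATSPER2 (0.0007), -1.31 ± 0.35 for CATSPERB (0.016), -1.27 ± 0.24 for EFCAB9 (0.0027) and -1.08 ± 0.18 for CATSPERZ (0.0013). It was -1.01 ± 0.23 for CATSPER4 (adjusted p = 0.0074) and -0.91 ± 0.27 for CATSPER1 (0.027). CATSPERD (-0.56 ± 0.23) and KCNU1 (-0.72 ± 0.28) did not pass the test (edgeR adjusted p = 0.088 and 0.070). Of these 9 members 7 were lower and 0 higher, where 28.5% of the 14552 genes tested passed, 10.1% lower and 18.4% higher. The median of the 9 was -1.08, beside -0.04 over all genes. HVCN1 entered the test only through the Ctcf-cKO mice, where it was high, and is given by its counts alone. Leaving out Ctcf-cKO replicate 1 reduced the number to 3 (CATSPER2, CATSPER3 and CATSPER4) and leaving out Ctcf-cKO replicate 3 to 4 (CATSPER2, CATSPER3, CATSPERZ and EFCAB9), while 9 passed without WT replicate 2.

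Over all barcodes, fewer cells of a type and less RNA per cell cannot be told apart. The germ cell makeup moved with genotype in the same sums. Summed markers of round spermatids had 6384 and 6405 CPM in WT mice against 4610 and 4423 CPM in Ctcf-cKO mice, and 12 of 18 were lower by edgeR and 0 higher. Spermatocyte markers had 1381 and 1228 CPM against 680 and 651 CPM, with 7 of 18 lower. Markers of elongating spermatids had 80120 and 112800 CPM against 114000 and 116900 CPM, with 1 of 15 higher. Leydig markers had 334 and 162 CPM against 2908 and 2749 CPM (10 of 11 higher), Sertoli markers 147 and 331 CPM against 2566 and 2754 CPM (12 of 12), and macrophage markers 36.3 and 200 CPM against 1292 and 1440 CPM (12 of 13). The part of these shifts in the fall of the channel genes was not tested.

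In the cells and in the barcodes below the limit for cells, each summed alone, the median log2 fold change of the 9 genes was -0.95. Of the counts of the 9 genes, 80.1% to 90.5% lay below the limit in WT replicate 1, where 71.0% of all counts did, 44.1% to 58.2% in WT replicate 2 (45.9% of all counts), 36.4% to 56.8% in Ctcf-cKO replicate 1 (43.8%) and 31.1% to 85.2% in Ctcf-cKO replicate 3 (49.1%). In the sum of the 811 cells CATSPERZ had 465 and 617 CPM against 256 and 322 CPM, and CATSPER2, CATSPER3, CATSPERZ and EFCAB9 passed, all lower (log2 fold changes -0.99, -1.25, -1.02 and -0.95, edgeR adjusted p = 0.029, 0.023, 0.017 and 0.037). In the barcodes under the limit the same 4 genes and CATSPER4 passed, all lower. CATSPERZ there had 869 and 657 CPM against 319 and 364 CPM. In the sum of the cells CATSPER1 overlapped between the genotypes (44.3 and 66.5 CPM against 49.0 and 32.0 CPM). The shares of all genes that passed in these sums are not given here.

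Within a cell class no member passed the test between genotypes. In round spermatid-like cells, where most of the genes peak, CATSPER3 had 189 and 137 CPM in WT mice against 77.4 and 118 CPM in Ctcf-cKO mice, the only member without overlap. Its log2 fold change was -0.85 ± 0.43 and did not pass the test (unadjusted p = 0.082, edgeR adjusted p = 1). The 9 members tested ranged from -0.88 ± 1.20 (CATSPERB) to 0.19 ± 0.43 (CATSPER1), with 7 below 0, a median of -0.29 beside -0.05 over all genes, and 0 passed by edgeR or by DESeq2. CATSPERZ had -0.40 ± 0.35, EFCAB9 -0.35 ± 0.40, CATSPER2 -0.29 ± 0.46, KCNU1 -0.16 ± 0.51, CATSPERD -0.04 ± 0.45 and CATSPER4 0.05 ± 0.38. In this class 0% of all 6534 genes passed by edgeR (6 genes by DESeq2), with 223 at an unadjusted p under 0.05, and 0 members were among these. Ctcf-cKO replicate 3 gave only 12 cells and 118863 counts to the class. The SEs of 0.35 to 1.20 exceeded those of the same genes over all barcodes (0.18 to 0.35), and whether the differences within the class and over all barcodes are unequal was not tested.

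The round class was not the same mixture in every mouse. Summed markers of elongating spermatids in it had 27540, 109800, 73790 and 26510 CPM, while its own markers had 8592, 8145, 7275 and 9364 CPM. Leydig markers had 170 and 142 CPM in WT mice against 1132 and 488 CPM in Ctcf-cKO mice within the same cells. The part of these in the values was not tested.

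In elongating spermatid-like cells 4 members could be tested, and 0 passed by edgeR or DESeq2 (0 also at an unadjusted p under 0.05), where 16.7% of 4092 genes did (14.4% higher and 2.27% lower). CATSPERZ had 174 and 229 CPM in WT mice against 93.8 and 162 CPM in Ctcf-cKO mice. The genotypes lay apart, and the log2 fold change of -0.79 ± 0.38 did not pass the test (edgeR adjusted p = 0.18). CATSPERD (-0.28 ± 0.45) also lay apart, lower in the Ctcf-cKO mice, and CATSPER2 (0.20 ± 0.68) lay apart the other way. EFCAB9 overlapped (0.65 ± 0.63). How many of all genes lay apart within a class was not counted. In the same cells 7 of 8 Leydig and 8 of 9 Sertoli markers tested were higher in the Ctcf-cKO mice.

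In spermatocyte-like cells 3 members could be tested and 0 passed by edgeR or DESeq2 (0 also at an unadjusted p under 0.05), where 0.726% of 3030 genes did. CATSPERZ had 842 and 797 CPM in WT mice against 418 and 512 CPM in Ctcf-cKO mice (log2 fold change -0.87 ± 0.51, edgeR adjusted p = 0.98). CATSPER2 also lay apart, with 290.2 and 346 CPM against 176 and 269.5 CPM (-0.61 ± 0.62), and CATSPERD did not (-0.97 ± 1.02). Leydig markers in this class had 145 and 142 CPM in WT mice against 4887 and 1833 CPM in Ctcf-cKO mice, and their part in the values was not tested.

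Whether the genotype difference changed between round and elongating spermatid-like cells was tested as an interaction. None of the 9 members with an estimate passed by edgeR (0% of all 8584 genes, 230 at an unadjusted p under 0.05, 0 members among them), nor by DESeq2. Estimates ran from -2.52 ± 1.63 for CATSPER1 to 0.57 ± 1.05 for EFCAB9, so that differences of several fold between the classes would not have been detectable.

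**Figure D4:**
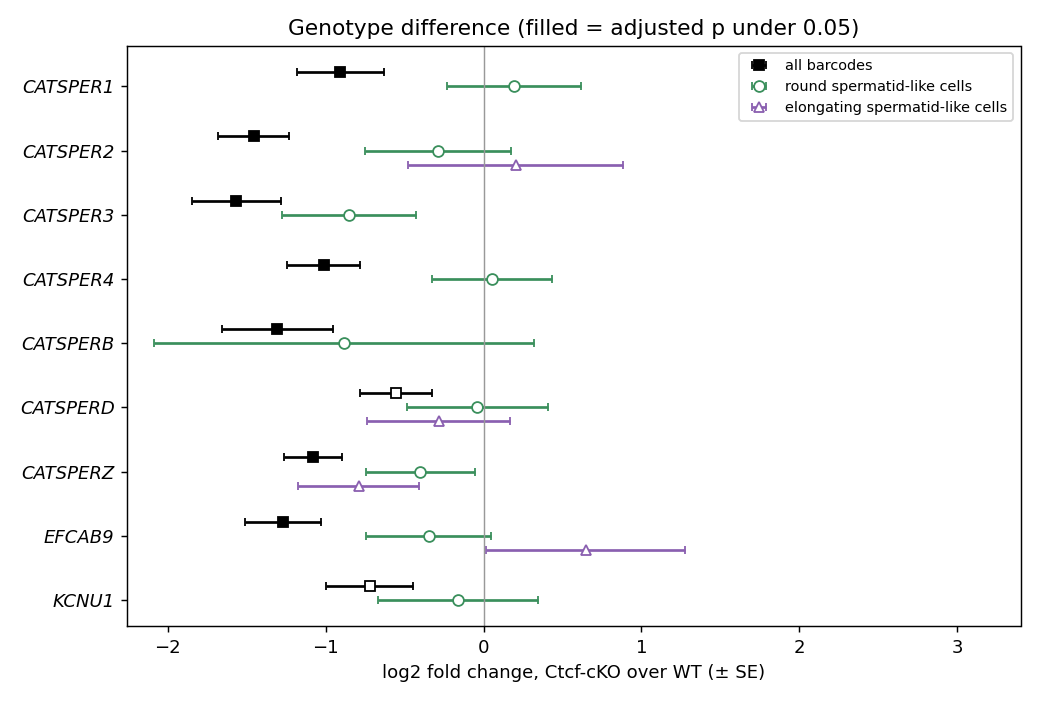
Log2 fold change of 9 channel genes between Ctcf-cKO and WT mice (horizontal axis, ± SE, edgeR, n = 2 mice each), over all barcodes (black squares), in round spermatid-like cells (green circles) and in elongating spermatid-like cells (purple triangles). Filled symbols passed the test. All black squares lie between -1.57 and -0.56 and 7 are filled, the green circles lie between -0.88 and 0.19, and no green or purple symbol is filled.

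HVCN1 departed from the other genes in where it was found. Over all barcodes, WT mice gave 0 and 2 counts and Ctcf-cKO mice 8 and 33, which is 0 and 0.412 CPM against 3.02 and 20.7 CPM. The ratio of the pooled counts (41 of 4246211 in the Ctcf-cKO mice against 2 of 11560690) was 55.8, and most of it came from 1 mouse. Against the same WT counts the ratio was 17.4 for Ctcf-cKO replicate 1 alone and 119.7 for Ctcf-cKO replicate 3 alone. Of the 33 counts in Ctcf-cKO replicate 3, 16 lay in 6 somatic-like cells, 11 in 3 elongating spermatid-like cells and 4 in 1 round spermatid-like cell. All 8 counts of Ctcf-cKO replicate 1 lay in 2 Sertoli-like cells. In spermatocyte-like cells it had 0 counts in every mouse, and 0 of 58 cells. Since 1 molecule may give up to 4 counts in these tables, the 41 counts stand for few molecules. Dividing each barcode's counts by 4 and rounding up left 1 in the WT and 13 in the Ctcf-cKO mice, a ratio of 35.4 with an exact 95% counting interval of 5.32 to 1504. For Ctcf-cKO replicate 1 alone the 2 that remained gave 8.72, with an interval of 0.454 to 514 that includes 1. Macrophage and Sertoli markers rose with it over all barcodes, and their part was not tested.

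Among the related genes, 29 were tested over all barcodes, with 17 lower, 0 higher and a median log2 fold change of -0.87 beside -0.04 over all genes. Of all 14552 genes tested there, 10.1% were lower and 18.4% higher. Of the CatSper complex, CATSPERG2, CATSPERE1, CATSPERE2, TMEM249, TMEM262, C2CD6 and SLCO6C1 were lower and CATSPERG1 did not pass (-0.70 ± 0.30, edgeR adjusted p = 0.10). SLCO6C1 had 240.0 and 192 CPM in WT mice against 87.5 and 61.5 CPM in Ctcf-cKO mice (log2 fold change -1.46 ± 0.24, edgeR adjusted p = 0.0010), and C2CD6 had 362 and 254 CPM against 135 and 127 CPM (-1.17 ± 0.21, adjusted p = 0.0020). LRRC52, the partner of KCNU1, had 72.2 and 58.9 CPM against 33.2 and 31.4 CPM (-0.95 ± 0.28, edgeR adjusted p = 0.026). The sperm sodium-proton exchanger SLC9C1 (-1.51 ± 0.30, edgeR adjusted p = 0.0031) and the anion exchanger SLC26A8 (-1.65 ± 0.30, adjusted p = 0.0019) were lower too. The other calls were CABYR, CACNA1H, CACNG5, CFTR, SLC9B1, VDAC2 and VDAC3. ATP1A4 had 304 and 294 CPM against 338 and 301.2 CPM and did not pass (0.16 ± 0.18). Within classes 0 of 14, 20 and 13 related genes tested passed by edgeR in spermatocyte-, round spermatid- and elongating spermatid-like cells, with 1, 1 and 4 at an unadjusted p under 0.05. Of all genes tested, 193 of 3030, 223 of 6534 and 1165 of 4092 were under that unadjusted p.

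The 5 genes whose pattern was most like that of the summed channel genes were LYPD4 (Pearson's r = 0.97), ROPN1L (0.96), PABPC2 (0.96), GGNBP2 (0.96) and GM128 (0.96), of 3537 genes with a mean of at least 50 CPM. Likeness was taken over the 12 sums of mouse and class on the log2(CPM + 1) scale. The sums share mice, depth and cell classes, and CATSPERZ holds much of the summed level, so the values are a description. LYPD4 had means of 559, 1037 and 138 CPM in spermatocyte-, round and elongating spermatid-like cells, and ROPN1L had 2242, 3143 and 834 CPM.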

How the data were processed

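Testes of 2 WT and 2 Ctcf-cKO mice were profiled with ddSEQ droplets and 3′ libraries, 1 library per mouse. Reads were aligned to GRCm38 by the authors, who deposited raw counts of each gene symbol in each barcode, as whole numbers. The counting tool and the merging of reads into molecules are not given in the sources used here. Values of 4 made up 11.5% to 30.0% of the values above 0 and values of 5 only 2.80% to 3.50%, so 1 molecule may hold up to 4 counts. The members and lists were chosen with earlier results of these data known.

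Barcodes were kept with 200 to 7000 genes, at most 10% mitochondrial counts and at least 3 times the plateau of their library (median count of ranks 301 to 1000). Doublets were not called. Cells were clustered in Seurat 5.3.0 (2000 variable genes without members and related genes, 15 principal components, Harmony with theta 2 and sigma 0.1, resolution 0.9), and a cluster was named by at least 3 markers from scanpy 1.11.5, taking the list with most, with spermatogonia and spermatocyte markers added together and a tie given to these. Pseudotime used 30 neighbours. A cluster of 67 cells without markers stayed unnamed.

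For each mouse the counts of a class were added up, and edgeR 4.0.16 (R 4.3.3) was used for TMM scaling, its filterByExpr and the quasi-likelihood test, at a Benjamini-Hochberg adjusted p of 0.05 over all genes, with mouse as a block between stages. SEs are the fold change on the log2 scale over the root of F. CPM is scaled to the counts of the cells summed, with 37102 to 1623649 counts per mouse and germ cell class setting the precision. The level that a count of 0 allows is that of 3 counts in the cells summed, and intervals are exact at 95% (scipy 1.17.1). Named were the 10 genes, the partners of CatSper and KCNU1 and related genes past the threshold, the 5 most alike, and markers and Ctcf where they touched a result. Alternatives were 1 fit over 12 sums, DESeq2 1.42.0, scaling by library totals, testing all genes with a count, leaving out each mouse, clustering uncorrected or at 0.5 or 1.3, 6 times the plateau, mitochondrial counts unfiltered, and free RNA subtracted. Counts divided by 4 and rounded up, the kept cells together, the barcodes under the limit and another name for 1 cluster at 6 times the plateau were added after seeing the data.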

Additional observations from a re-analysis of the deposited data

Results flagged for a closer look

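CATSPER2 was flagged because its genotype difference pointed opposite ways in 2 cell classes without overlap of the mice. In spermatocyte-like cells both Ctcf-cKO mice (176 and 269.5 CPM) lay below both WT mice (290.2 and 346 CPM), with a log2 fold change of -0.614 ± 0.621. In elongating spermatid-like cells both Ctcf-cKO mice (38.4 and 38.9 CPM) lay above both WT mice (30 and 30.7 CPM), with 0.203 ± 0.681. The difference between these classes was not tested, neither value passed the test, and the second changed sign under 3 alternatives.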

How the results depend on the processing

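No paired analysis was possible because the genotypes share only replicate number 1. The numbers of channel genes that passed between genotypes within each class and in the interaction were 0 under each alternative run. Over all barcodes, with HVCN1 left out, 7 of 9 passed, where 28.5% of all genes did. In the barcodes under the limit 5 passed and in the 811 cells together 4, and the shares of all genes there are not given here. When a mouse was left out, the median log2 fold change of the 9 lay between -1.23 and -1.02. A mouse left alone in its genotype is then assumed to vary like the other genotype. Between round and spermatocyte-like cells 5 passed, 0 without batch correction and 0 with 6 times the plateau, and 4 to 5 with a mouse left out. Without batch correction a cluster of 127 cells with 12 spermatocyte, 2 spermatogonia and 13 round spermatid markers, 107 of them from WT replicate 2, was counted as spermatocyte-like, and with 6 times the plateau a cluster of 47 cells with 10, 1 and 11. With the latter counted as round spermatid-like 5 passed, and CATSPER2, which did not pass, had -0.030. Between elongating and round spermatid-like cells 7 passed, and 2 to 5 with a mouse left out. Scaling by library totals alone moved the median of all genes by -0.34 at the first step (62.3% of all calls higher, against 77.9%), by -0.80 at the second (16.2% against 47.3%), by 0.21 between genotypes in elongating spermatid-like cells and by 0.50 in the interaction. DESeq2 moved it by -0.23 at the first step (59.6% higher). Of the genes that passed, none changed sign. The values of genes that did not pass changed sign as follows, on the log2 scale, and the causes were not tested. With 6 times the plateau they were CATSPER1 -0.0055 and CATSPER4 -0.11 between genotypes in the round class, CATSPERD 0.30 in the spermatocyte-like class, CATSPERZ -0.092 and CATSPER2 -0.60 at the first step, and CATSPER1 0.39, CATSPER3 0.86 and CATSPER4 0.18 in the interaction. With counts divided by 4 they were CATSPER2 -0.14 and CATSPERD -0.19 at the first step. With free RNA subtracted they were CATSPER3 1.35 and CATSPER4 0.26 in the interaction. With library totals alone they were CATSPER2 -0.035 at the first step, CATSPERD -0.21 at the second and 0.055 in the round class, and CATSPERB 0.18 in the interaction. Without batch correction they were CATSPERD -0.18 at the first step, CATSPER4 -0.29 and CATSPERD 0.053 in the round class, CATSPER2 -0.71 in the elongating class, and CATSPER2 -0.29, CATSPERB 0.13, CATSPER4 0.24 and KCNU1 0.23 in the interaction. CATSPER4 in the round class had -0.10 with no filter on low genes and -0.042 in 1 fit over 12 sums, where CATSPER2 in the elongating class had -0.32. With each mouse left out in turn, values that did not keep their sign ranged, between genotypes in the round class, from -0.90 to 0.083 for CATSPER2, from -0.17 to 0.13 for CATSPER4, from -0.29 to 0.093 for CATSPERD and from -0.56 to 0.20 for KCNU1, in the elongating class from -0.015 to 0.22 for CATSPER2 and from -0.23 to 1.17 for EFCAB9, at the second step from -0.25 to 0.065 for CATSPERB, and in the interaction from -0.35 to 0.66 for CATSPER2, from -6.08 to 0.69 for CATSPER3 and from -0.82 to 4.02 for CATSPERB. The mitochondrial filter removed no cell. Depth limits the spermatocyte-like and round classes most, where 1 mouse held 37102 and 118863 counts.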
